A study of Mus musculus with 24 samples.

Results

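The genes described here encode the enzymes and regulators of hepatic glycolysis, gluconeogenesis and glycogen metabolism in livers of Ogg1-/- and wild-type (WT) mice. They were taken by name from a list of 37 genes, as the rows of the deposited table whose platform annotation gives 1 gene symbol equal to a listed name. Where several probe sets carried a symbol, the one with the highest mean over the arrays was used. In all, 34 of the 37 genes were measured, of 19938 genes with such a probe set. Gpi1, Pfkfb1 and Eno1 were not analysed here.

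Liver RNA of 24 male C57BL6 mice was hybridised to the Mouse Gene ST array, 1 array per mouse and 6 mice per group. The groups were Ogg1-/- mice on a high-fat diet (HFD), WT mice on the HFD, Ogg1-/- mice on chow and WT mice on chow. All mice were housed singly and ate their diet freely for 10 weeks. The sample labels put the mice at 10 weeks old when feeding started. The methods put them somewhat older. OGG1 is the DNA glycosylase that removes oxidized guanine from DNA. The Ogg1-/- allele is a constitutive knockout, so every cell of the liver carries it, and the line had been backcrossed many times to C57BL/6J. Neither the labels nor the methods give the fasting state or the hour at tissue collection.

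The liver takes up glucose after a meal and releases it between meals, and the genes described here encode both directions. Glucose enters through the transporter GLUT2, is phosphorylated, and is either stored as glycogen or passed down glycolysis to pyruvate. Gluconeogenesis runs the path in reverse from pyruvate through PEPCK, fructose-1,6-bisphosphatase and glucose-6-phosphatase. In the last step, glucose-6-phosphate is carried into the endoplasmic reticulum by the transporter encoded by Slc37a4 and is cleaved there by the catalytic subunit encoded by G6pc. Insulin and dietary carbohydrate are known to induce glycolytic genes such as Pklr, whereas glucagon and glucocorticoids induce G6pc and Pck1.

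The targeted gene was examined first. The Ogg1 probe set had a log2 signal of 5.87 ± 0.13 in Ogg1-/- livers and 6.46 ± 0.08 in WT livers on the HFD, and of 5.93 ± 0.06 in Ogg1-/- livers and 6.47 ± 0.11 in WT livers on chow (SD, n = 6 each), with no overlap on either diet. The sources used here do not state whether these probes match the removed sequence, which makes the probe set only a partial check of the genotype labels. Of 12 hepatocyte markers, 9 were measured, and their mean log2 signal lay between 12.67 and 13.22 in every liver. All values given below are log2 signals, on which a difference of 1 is a doubling, and levels of different genes cannot be compared on this scale. A gene passed the test when its limma p-value, after Benjamini-Hochberg adjustment across the 35556 probe sets of the array, was under 0.05. The sample descriptions end in a suffix of unstated meaning that is shared by the 6 WT livers on chow and by replicate 5 of the WT livers on the HFD, so that whatever it marks cannot be told apart from the WT chow group.

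One liver stood apart from the others of its group. Each array was given an axis score, its position along the first principal component of the mouse-to-mouse differences inside the chow groups, over all probe sets. Replicate 1 of Ogg1-/- on chow (Ogg1-/- chow replicate 1 below) scored 80.9, the next liver of its group scored 7.74 and the highest WT liver on chow -6.51. The score was built from residuals that include this liver, so these values are a description. The score ran from 18.5 to 54.8 in Ogg1-/- livers and from -20.7 to 10.4 in WT livers on the HFD, so that these groups did not overlap on it. For the 34 measured genes, calls gained or lost without this liver, or with this score as a covariate, are given with each gene. Some are given in the account of that fit at the end, and for Hk1 they enter only a count. For the further pathway genes, regulators, fasting-induced genes and cell markers named later, neither fit is given. Whether calls on those genes hold in these fits is therefore not shown.

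Across the 34 genes, the genotypes differed in 2 genes on chow and in 8 on the HFD. On chow, G6pc fell and Slc37a4 rose in Ogg1-/- livers, or 5.88% of the genes against 0.478% of all probe sets. On the HFD, Pfkl, Pfkm, Khk, G6pc3 and Slc37a4 rose and Slc2a2, Phka2 and Ppp1r3c fell, or 23.5% of the genes against 19.8% of all probe sets. By direction, 5 genes rose against 10.3% and 3 fell against 9.55% of all probe sets, and 3 genes (Slc37a4, Phka2 and Ppp1r3c) also had a fold of at least 1.5, against 5.89%. The share on the HFD is thus near that of the whole array. With probe sets dimmer than 5.93 left out, 43% of those remaining passed on the HFD and 1.69% on chow. The median difference of the 34 genes was 0.07 on chow and 0.02 on the HFD, beside 0.02 over all probe sets in each diet.

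The diets were compared within each genotype. Between HFD and chow, 9 of the 34 genes passed in Ogg1-/- livers, or 26.5% against 9.53% of all probe sets. In these livers Pfkl, Fbp1, Khk, Pklr, Ldha, G6pc, Slc37a4 and Ppp1r3b rose and Pfkfb2 fell, 8 genes against 4.58% and 1 gene against 4.94% of all probe sets, and 4 had a fold of at least 1.5 (Khk, Pklr, G6pc and Ppp1r3b), against 3.11%. In WT livers only Pklr and Ldha rose, 2 of 34 genes or 5.88%, against 0.925% of all probe sets, or 0.532% among rises alone. The median difference was 0.10 in each genotype, beside 0.02 over all probe sets. The share over the array depends on which probe sets are counted. With probe sets dimmer than 5.93 left out, 24.4% of those remaining passed in Ogg1-/- livers and 2.5% in WT livers. With 1 probe set per gene, 14.5% of all genes passed in Ogg1-/- livers, against 32.4% of the 34 genes. Whether the genes listed here or below differ from others of like signal was not tested. The 4 comparisons share groups: the WT livers on the HFD, for example, serve in a genotype comparison and in a diet comparison.

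**Figure D1:**
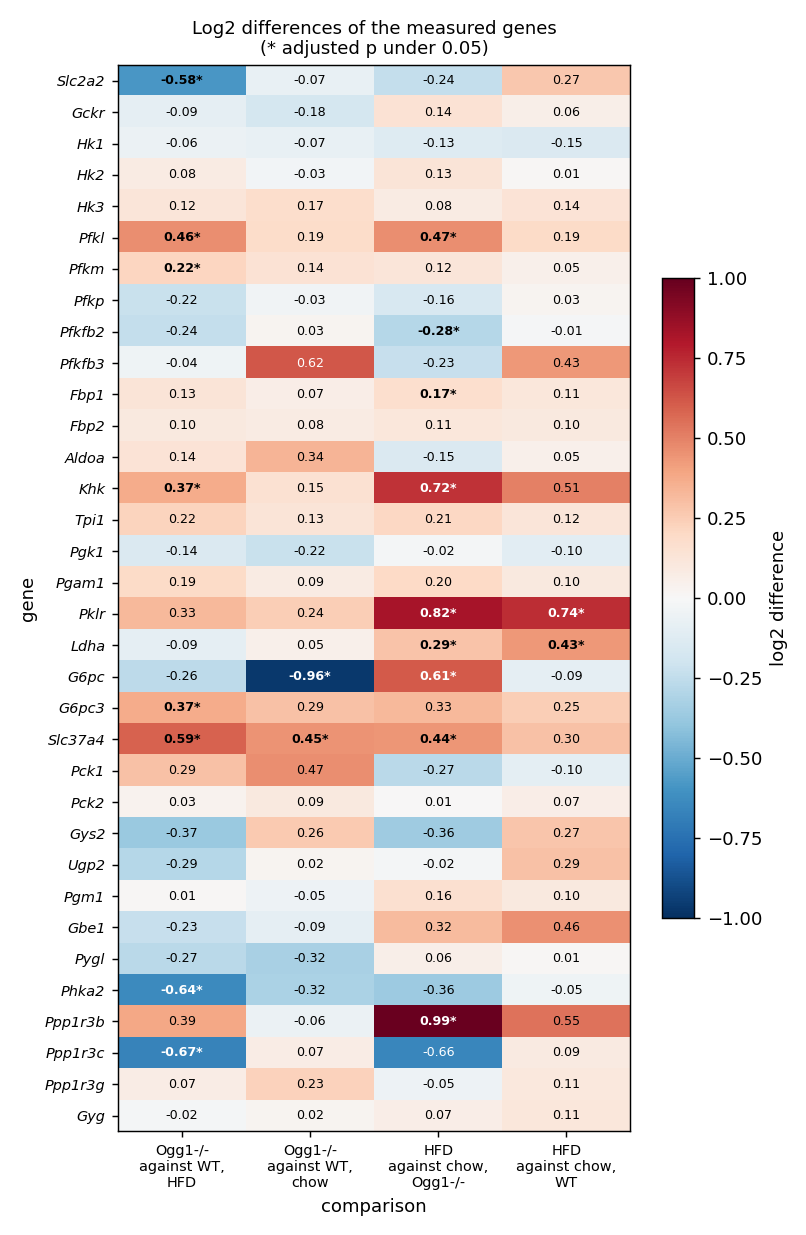
Log2 differences of the 34 measured genes (rows) in the 4 comparisons (columns), as fitted by limma, with red for higher and blue for lower values in the group named first and an asterisk for an adjusted p under 0.05. The lowest value is -0.96, G6pc in Ogg1-/- against WT livers on chow, and the highest is 0.99, Ppp1r3b in HFD against chow in Ogg1-/- livers.

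Whether the genotype difference itself depended on the diet was tested as the interaction. None of the 34 genes passed with limma, against 0.00281% of all probe sets, which is 1 probe set, and 7 of the 34 had an unadjusted p under 0.05. These 7 were Slc2a2, Pfkfb2, Pfkfb3, G6pc, Gys2, Ppp1r3b and Ppp1r3c. A gene that passed on one diet and not on the other is therefore not shown to differ between the diets. Without Ogg1-/- chow replicate 1, 2 genes passed, against 1.52% of all probe sets: Slc2a2 with a difference of differences of -0.69 (adjusted p = 0.0414) and Gys2 with -0.82 (adjusted p = 0.0229).

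The genes of the glucose-6-phosphatase system gave the differences that passed on chow, and the upstream sequences of G6pc and Slc37a4 are shown for that reason, followed by those of Pklr and Ldha, the genes that rose with the HFD in both genotypes. Each is the stretch of 250 bases that ends just before an annotated RefSeq transcript start on GRCm38.p6, on the plus strand. The windows are chr11:101367466-101367715 for G6pc, chr9:44398104-44398353 for Slc37a4, chr3:89136373-89136622 for Pklr and chr7:46845554-46845803 for Ldha. Capitals mark matches, on either strand, to any of 6 motifs searched: TATAAA (bound by the TATA-binding protein), TGTTTTG (core of the insulin response element bound by FOXO1), CACGGG (an arm of the carbohydrate response element of Pklr), CACGTG (E-box), TGACGTCA (cAMP response element) and TTATGTAA (PAR bZIP site). CACGTG is its own reverse complement, as is TGACGTCA, and no 2 of the motifs share a matched position in these windows.
G6pc: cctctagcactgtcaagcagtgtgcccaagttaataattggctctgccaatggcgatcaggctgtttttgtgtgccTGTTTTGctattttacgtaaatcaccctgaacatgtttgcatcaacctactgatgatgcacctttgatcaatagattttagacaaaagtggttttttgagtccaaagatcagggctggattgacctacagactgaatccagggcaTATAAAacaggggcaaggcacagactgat
Slc37a4: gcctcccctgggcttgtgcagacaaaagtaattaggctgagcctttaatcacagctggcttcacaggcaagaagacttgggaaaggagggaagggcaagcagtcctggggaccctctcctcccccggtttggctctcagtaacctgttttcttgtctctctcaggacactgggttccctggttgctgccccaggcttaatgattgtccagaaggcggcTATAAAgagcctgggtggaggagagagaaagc
Pklr: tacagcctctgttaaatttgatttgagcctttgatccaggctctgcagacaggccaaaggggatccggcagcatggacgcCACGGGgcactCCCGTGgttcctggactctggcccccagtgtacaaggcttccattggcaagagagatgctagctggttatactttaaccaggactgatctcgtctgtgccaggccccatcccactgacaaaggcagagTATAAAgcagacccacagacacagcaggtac
Ldha: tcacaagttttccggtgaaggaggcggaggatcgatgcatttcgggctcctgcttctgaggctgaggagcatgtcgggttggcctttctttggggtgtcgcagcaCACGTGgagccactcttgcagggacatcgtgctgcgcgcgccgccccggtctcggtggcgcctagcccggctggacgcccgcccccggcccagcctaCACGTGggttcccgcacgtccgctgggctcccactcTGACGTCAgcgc

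In the G6pc window, TATAAA begins 29 bases and TGTTTTG 174 bases before the start. The table has 3 windows for Slc37a4 and 2 each for Pklr and Ldha, and for these genes the window shown is the one with matches, the others having 0. In the Slc37a4 window TATAAA begins 32 bases before the start. The Pklr window holds CACGGG on the plus strand at -170 and on the minus strand at -159, and TATAAA at -31. The Ldha window holds CACGTG at -145 and at -48, and TGACGTCA at -12. Among 32851 windows of the same length, TATAAA occurs in 12.4%, TGTTTTG in 5.56%, CACGGG in 8.46%, CACGTG in 6.02%, TGACGTCA in 1.55% and TTATGTAA in 0.819%. Of the 34 genes, 32 have a window in the RefSeq table, some more than 1, and TATAAA occurs in at least 1 window of 4 genes (G6pc, Pgm1, Pklr and Slc37a4), TGTTTTG in 4, CACGGG in 6, CACGTG in 8, TGACGTCA in 1 and TTATGTAA in 0. Other forms of the PAR bZIP site were not searched, and the G6pc window holds ttacgtaa, which differs from TTATGTAA in a single letter. The absence of a match to TTATGTAA therefore does not show that a window lacks such a site. These matches are descriptions of the letters and not measured sites.

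G6pc, which encodes the enzyme that frees glucose from its phosphate, fell in Ogg1-/- livers on chow, the largest difference of any of the 34 genes between the genotypes. Its log2 signal was 11.78, 12.36 and 12.74 (lowest, median and highest of 6) in Ogg1-/- livers, against 13.15, 13.27 and 13.47 in WT livers, on chow. No Ogg1-/- liver reached the lowest WT liver, and this absence of overlap was found in 3 of the 34 genes (G6pc, Slc37a4 and Pfkfb3), against 1.06% of all probe sets. The difference was -0.96 ± 0.16 (standard error), or 1.95-fold lower (adjusted p = 0.00457). Without Ogg1-/- chow replicate 1, which had the lowest value, it was -0.86 (adjusted p = 0.0122), and with the axis score as a covariate it was -0.88 (adjusted p = 0.0272). The call was lost with the methods' t-test (adjusted p = 0.0731) and held in the other 34 alternatives. On the HFD the groups overlapped, at 12.46, 13.00 and 13.26 in Ogg1-/- livers and 12.69, 13.21 and 13.58 in WT livers, with a difference of -0.26 ± 0.16 (adjusted p = 0.304). G6pc rose with the HFD in Ogg1-/- livers, by 0.61 ± 0.16 (1.53-fold, adjusted p = 0.0229), whereas in WT livers the diet difference was -0.09 (adjusted p = 0.849). The call in Ogg1-/- livers was lost in 4 of 35 alternatives, among them the fits without Ogg1-/- chow replicate 6 (0.56, adjusted p = 0.0654) and without Ogg1-/- HFD replicate 1 (0.54, adjusted p = 0.0665), with adjusted p up to 0.126. The interaction for G6pc was 0.70 ± 0.23 and did not pass (adjusted p = 0.538).

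Slc37a4, the glucose-6-phosphate transporter that works with G6pc, moved the other way on chow and was higher in Ogg1-/- livers on both diets. On the HFD its log2 signal was 11.73, 12.02 and 12.15 (lowest, median and highest) in Ogg1-/- livers, against 11.21, 11.31 and 11.65 in WT livers. On chow it was 11.28, 11.47 and 11.90 in Ogg1-/- livers, against 10.95, 11.04 and 11.24 in WT livers. The genotypes did not overlap on either diet. The difference was 0.59 ± 0.10 on the HFD (1.51-fold, adjusted p = 0.00133) and 0.45 ± 0.10 on chow (1.36-fold, adjusted p = 0.0431). The call on the HFD held under all 35 alternative fits, a number that leaves out the requirement of a fold of at least 1.5, while that on chow was lost in 19 of them, 15 of which were among the 24 fits that each left out 1 array, with adjusted p between 0.0224 and 0.254 over the alternatives. It was 0.37 (adjusted p = 0.0978) without Ogg1-/- chow replicate 1 and 0.33 (adjusted p = 0.173) with the axis score as a covariate. Slc37a4 also rose with the HFD in Ogg1-/- livers by 0.44 ± 0.10 (adjusted p = 0.00965; 0.31 with the axis score, adjusted p = 0.0543), and in WT livers its diet difference was 0.30 (adjusted p = 0.182).

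G6pc3, the ubiquitous glucose-6-phosphatase, rose in Ogg1-/- livers on the HFD. Its log2 signal was 8.39, 8.63 and 8.74 in Ogg1-/- livers, against 8.07, 8.23 and 8.39 in WT livers. The ranges met at 8.39 without crossing, and the difference was 0.37 ± 0.12 (adjusted p = 0.0391). With the axis score as a covariate it was 0.05 (adjusted p = 0.782), and the call was also lost in 10 of the 24 fits that left out 1 array. Ogg1-/- chow replicate 1, at 8.98, was the highest of all 24 livers. The diet difference in Ogg1-/- livers, 0.33 (adjusted p = 0.0983), was 0.47 without it and passed (adjusted p = 0.000573).

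Of the remaining genes of gluconeogenesis, Pck1 and Pck2, the cytosolic and mitochondrial PEPCK, and Fbp2, the muscle-type bisphosphatase, passed in no comparison. Fbp2 was dim, with a mean of 5.69 over the arrays. Pck1 had a log2 signal of 11.89, 12.69 and 12.95 in Ogg1-/- livers and 11.84, 12.22 and 12.66 in WT livers on the HFD, and of 12.20, 12.88 and 13.15 in Ogg1-/- livers and 12.07, 12.27 and 12.79 in WT livers on chow. Its groups overlapped on both diets, with differences of 0.29 (adjusted p = 0.297) on the HFD and 0.47 (adjusted p = 0.198) on chow. Fbp1, the liver fructose-1,6-bisphosphatase, rose with the HFD in Ogg1-/- livers by a small amount. Its log2 signal there was 13.88, 13.97 and 14.09 on the HFD, against 13.76, 13.82 and 13.84 on chow, without overlap, and the difference was 0.17 ± 0.05 (1.12-fold, adjusted p = 0.0338). That call was lost in 10 of 35 alternatives, 7 of them fits that left out 1 Ogg1-/- array, with adjusted p up to 0.315. In WT livers it was 13.72, 13.86 and 13.93 on the HFD and 13.70, 13.74 and 13.79 on chow, and neither this difference of 0.11 nor those between the genotypes, 0.13 on the HFD and 0.07 on chow, passed. That of 0.13 was 0.15 without Ogg1-/- HFD replicate 4 and then passed (adjusted p = 0.0476). The genotype difference on the HFD also passed with median centring, without dim probe sets, with array weights and with a trended robust prior.

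**Figure D2:**
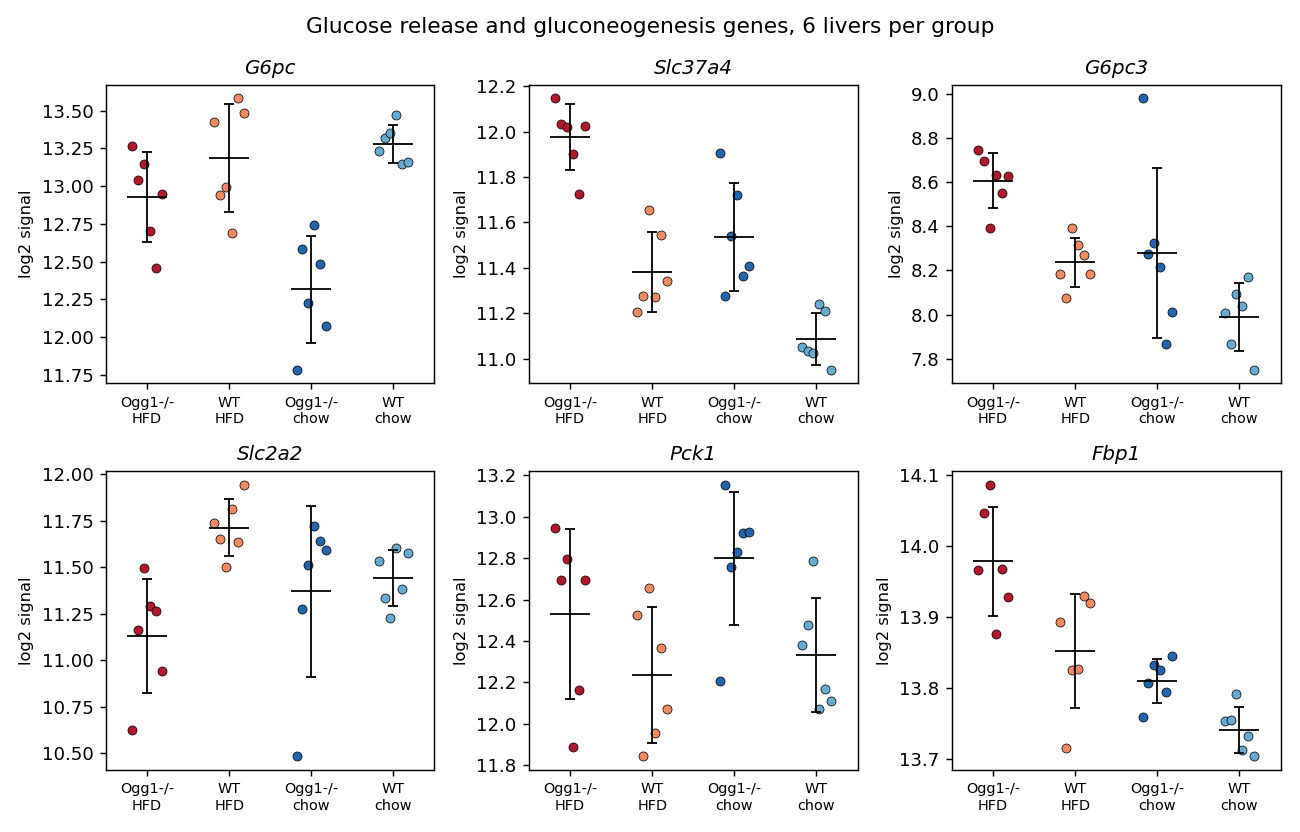
Log2 signal (vertical axis) of 6 genes of gluconeogenesis and glucose transport in each liver (points) of the 4 groups (horizontal axis), with the group mean (horizontal line) and SD (bars). G6pc is lowest in Ogg1-/- livers on chow, Slc37a4 is higher in Ogg1-/- than in WT livers on both diets, and 1 liver, Ogg1-/- chow replicate 1, lies apart at 10.48 for Slc2a2 and 8.98 for G6pc3.

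Slc2a2, which encodes the transporter GLUT2 through which glucose enters and leaves hepatocytes, fell in Ogg1-/- livers on the HFD. Its log2 signal was 10.63, 11.21 and 11.49 in Ogg1-/- livers, against 11.50, 11.69 and 11.94 in WT livers. No Ogg1-/- liver reached the lowest WT liver, though the highest of them, at 11.49, lay close to it, and the difference was -0.58 ± 0.16 (adjusted p = 0.0148). With the axis score as a covariate it was -0.18 (adjusted p = 0.385). On chow the log2 signal was 10.48, 11.55 and 11.72 in Ogg1-/- livers and 11.23, 11.46 and 11.60 in WT livers, with a difference of -0.07 (adjusted p = 0.861) that was 0.11 without replicate 1 of the Ogg1-/- livers. Between the diets Slc2a2 did not pass in the fit of all livers, with -0.24 in Ogg1-/- and 0.27 in WT livers. Without Ogg1-/- chow replicate 1 the value in Ogg1-/- livers was -0.42 and passed (adjusted p = 0.0136). In the fit with the axis score it was 0.08 in Ogg1-/- livers (adjusted p = 0.753) and 0.47 in WT livers, where it passed (adjusted p = 0.00935).

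The genes of glucose phosphorylation passed in no comparison of the fit of all livers. Gckr, the regulatory protein that holds glucokinase in the nucleus, had a log2 signal of 10.28, 10.44 and 10.68 in Ogg1-/- livers and 10.33, 10.52 and 10.73 in WT livers on the HFD. On chow it had 10.04, 10.35 and 10.48 in Ogg1-/- livers and 10.37, 10.49 and 10.61 in WT livers. The differences were -0.09 on the HFD and -0.18 on chow. Between the diets in Ogg1-/- livers Gckr differed by 0.14, and with the axis score as a covariate by 0.25, which passed (adjusted p = 0.0489). The hexokinase genes Hk2 and Hk3 differed by between -0.03 and 0.17 across the 4 comparisons. Both were dim, with means of 5.43 and 5.81 over the arrays. The probe set that the selection took for Hk1 had a mean of 12.2, while the other probe set annotated to Hk1 alone had a mean of 5.83. Over the 24 arrays the first of these correlated at 0.81 to 0.93 with 16 probe sets annotated to both Rpl17 and Hk1, a description over arrays that include all 4 groups, so its signal cannot be assigned to hexokinase 1 and its values are not described further.

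In upper glycolysis, 2 of the phosphofructokinase genes rose in Ogg1-/- livers on the HFD. Pfkl, the liver subunit of the enzyme that commits fructose-6-phosphate to glycolysis, had a log2 signal of 8.38, 8.48 and 8.61 in Ogg1-/- livers, against 7.87, 7.99 and 8.37 in WT livers. The groups did not overlap, although replicate 5 of the WT livers, the one on the HFD that carries the suffix of the WT chow livers, came close at 8.37, and the difference was 0.46 ± 0.10 (1.38-fold, adjusted p = 0.00331). Absence of overlap was found in 7 of the 34 genes on the HFD (Slc2a2, Pfkl, Pfkm, G6pc3, Slc37a4, Gys2 and Phka2), against 12.1% of all probe sets. On chow Pfkl was at 7.67, 8.02 and 8.34 in Ogg1-/- livers and 7.70, 7.85 and 7.94 in WT livers, with a difference of 0.19 (adjusted p = 0.306). Pfkl rose with the HFD in Ogg1-/- livers, by 0.47 ± 0.10 (adjusted p = 0.00489), and its diet difference in WT livers was 0.19 (adjusted p = 0.390). With the axis score as a covariate, the genotype difference on the HFD was 0.28 (adjusted p = 0.0710).

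Pfkm, the muscle subunit, had a log2 signal of 7.78, 7.93 and 8.03 in Ogg1-/- livers on the HFD, against 7.499, 7.72 and 7.76 in WT livers. It rose by 0.22 ± 0.07 (1.16-fold, adjusted p = 0.0233), without overlap. That call was lost without replicate 1 or 2 of the Ogg1-/- livers or replicate 1 of the WT livers on the HFD, with differences of 0.20, 0.19 and 0.18, and with the axis score as a covariate (0.12, adjusted p = 0.322). Pfkp, the platelet subunit, differed by -0.22 on the HFD and -0.03 on chow and did not pass. Its probe set was dim, with a mean of 5.63 over the arrays.

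The bifunctional enzymes that set the level of fructose-2,6-bisphosphate, an activator of phosphofructokinase, gave less stable values. Pfkfb2 fell with the HFD in Ogg1-/- livers, where its log2 signal was 6.98, 7.15 and 7.41 on the HFD, against 7.31, 7.38 and 7.75 on chow. These ranges overlapped, the difference was -0.28 ± 0.09 (adjusted p = 0.0421), and the call was lost in 15 of 35 alternatives, with the axis score among them (-0.18, adjusted p = 0.237). On the HFD Pfkfb2 differed by -0.24 between the genotypes (adjusted p = 0.0527), which passed without Ogg1-/- chow replicate 1 (adjusted p = 0.0387). It also passed without Ogg1-/- chow replicate 6, Ogg1-/- HFD replicate 4, WT HFD replicate 4 or WT HFD replicate 5. Pfkfb3 did not overlap between the genotypes on chow, at 6.69, 7.06 and 7.27 in Ogg1-/- livers against 6.27, 6.36 and 6.58 in WT livers, yet its difference of 0.62 ± 0.18 did not pass (adjusted p = 0.109). On the HFD the WT livers spread from 6.12 to 7.78 in Pfkfb3 and enclosed the Ogg1-/- livers.

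Khk, the ketohexokinase that phosphorylates fructose and so feeds it into the pathway below phosphofructokinase, rose with the HFD in Ogg1-/- livers. In Ogg1-/- livers its log2 signal was 11.42, 11.72 and 11.88 on the HFD, against 10.63, 10.88 and 11.59 on chow, a difference of 0.72 ± 0.13 (1.65-fold, adjusted p = 0.00152). In WT livers it was 11.02, 11.32 and 11.53 on the HFD, against 10.70, 10.75 and 11.01 on chow. The WT groups did not overlap, and their difference of 0.51 ± 0.13 just missed the threshold (1.42-fold, adjusted p = 0.0559). It passed without Ogg1-/- chow replicate 1 (adjusted p = 0.00686), which at 11.59 was the highest Khk value on chow. The WT difference also passed without Ogg1-/- chow replicate 2, Ogg1-/- chow replicate 6 or WT HFD replicate 2. Between the genotypes Khk rose on the HFD by 0.37 ± 0.13 (adjusted p = 0.0422) with overlapping groups, a call lost in 12 of 35 alternatives (0.14 with the axis score, adjusted p = 0.592), and on chow the difference was 0.15 (adjusted p = 0.553). Aldoa, an aldolase, differed by between -0.15 and 0.34 over the 4 comparisons and did not pass. Its diet difference in Ogg1-/- livers was -0.37 with the axis score as a covariate and passed (adjusted p = 0.00796). Tpi1, the triosephosphate isomerase, differed by 0.22 (adjusted p = 0.0518) between the genotypes on the HFD and by 0.21 (adjusted p = 0.0933) between the diets in Ogg1-/- livers. Without Ogg1-/- chow replicate 1 both passed, at 0.22 (adjusted p = 0.0162) and 0.27 (adjusted p = 0.00535).

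In lower glycolysis, Pklr and Ldha rose with the HFD in both genotypes and did not pass between the genotypes on either diet. Pklr encodes the liver pyruvate kinase, the last step of glycolysis. In Ogg1-/- livers its log2 signal was 11.88, 12.13 and 12.33 on the HFD, against 10.92, 11.26 and 11.62 on chow, and the diets did not overlap. In WT livers it was 11.28, 11.85 and 12.10 on the HFD, against 10.73, 10.99 and 11.39 on chow, with overlap. The diet difference was 0.82 ± 0.15 in Ogg1-/- livers (1.77-fold, adjusted p = 0.00189) and 0.74 ± 0.15 in WT livers (1.67-fold, adjusted p = 0.0136). The interaction for Pklr was 0.08 ± 0.21, and the genotype differences were 0.33 (adjusted p = 0.129) on the HFD and 0.24 (adjusted p = 0.389) on chow.

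Ldha encodes the lactate dehydrogenase subunit that interconverts pyruvate and lactate. In Ogg1-/- livers its log2 signal was 13.09, 13.29 and 13.41 on the HFD, against 12.77, 13.01 and 13.24 on chow, with overlap, and it rose by 0.29 ± 0.07 (adjusted p = 0.0119). Absence of overlap between the diets in Ogg1-/- livers was found in 4 of the 34 genes (Pfkl, Fbp1, Pklr and Ppp1r3b), against 2.4% of all probe sets. In WT livers Ldha was at 13.27, 13.38 and 13.40 on the HFD, against 12.85, 12.93 and 13.02 on chow, and rose by 0.43 ± 0.07 (1.35-fold, adjusted p = 0.00155). Absence of overlap in this comparison was found in 3 of the 34 genes (Ldha, Khk and Ugp2), against 2.25% of all probe sets.

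The other genes of lower glycolysis did not pass at the probe set used. Pgam1, a phosphoglycerate mutase, differed by 0.19 (adjusted p = 0.104) between the genotypes on the HFD, and the 2 other probe sets of Pgam1, which hold the same values as each other, by 0.24 (adjusted p = 0.0249). Pgk1, the phosphoglycerate kinase, differed between the genotypes by -0.14 on the HFD (adjusted p = 0.415) and by -0.22 on chow (adjusted p = 0.278) at the probe set used. Another probe set of Pgk1 gave the same fitted values as the one used, so it adds nothing to it. A further probe set, with slightly different values, gave -0.14 and -0.22 as well. Both Pgam1 and Pgk1 have near-identical gene copies in the genome whose transcripts such probes could also bind, so their values are uncertain.

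**Figure D3:**
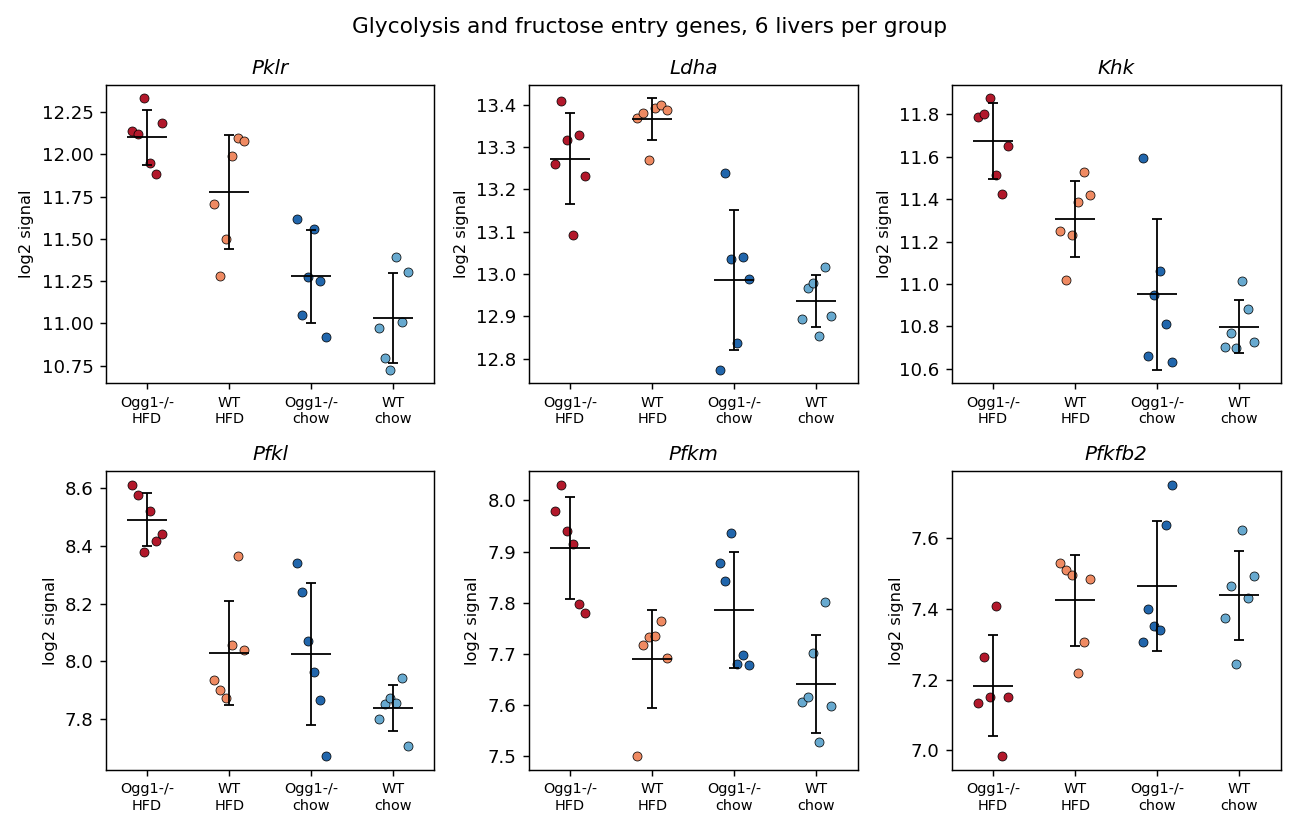
Log2 signal (vertical axis) of 6 genes of glycolysis and fructose entry in each liver (points) of the 4 groups (horizontal axis), with the group mean (horizontal line) and SD (bars). Pklr and Ldha are higher on the HFD than on chow in both genotypes, Khk is so in Ogg1-/- livers (in WT livers adjusted p = 0.0559), and Pfkl and Pfkm are higher in Ogg1-/- than in WT livers on the HFD.

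In glycogen synthesis, 2 of the 3 measured glycogen-targeting subunits of protein phosphatase 1 passed in a comparison, and none of the genes of the synthetic enzymes did in the fit of all livers. These subunits bring the phosphatase to glycogen, where it activates glycogen synthase and inactivates phosphorylase. Ppp1r3b, the main hepatic subunit, rose with the HFD in Ogg1-/- livers. Its log2 signal there was 8.96, 9.28 and 9.61 on the HFD, against 8.06, 8.36 and 8.48 on chow, without overlap, a difference of 0.99 ± 0.14 (1.98-fold, adjusted p = 0.000233) that passed under all 35 alternative fits. In WT livers it was 8.43, 8.99 and 9.16 on the HFD, against 8.02, 8.34 and 8.91 on chow, with a difference of 0.55 ± 0.14 (adjusted p = 0.0674). The WT diet difference passed without WT chow replicate 5 (adjusted p = 0.0153) or WT HFD replicate 4 (adjusted p = 0.0230). Between the genotypes Ppp1r3b differed by 0.39 (adjusted p = 0.0573) on the HFD and by -0.06 (adjusted p = 0.875) on chow. That on the HFD passed without WT chow replicate 5, Ogg1-/- HFD replicate 1, WT HFD replicate 3 or WT HFD replicate 5. The adjusted p was then 0.0336, 0.0392, 0.0456 and 0.0420, in the same order.

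Ppp1r3c, another subunit of this family, fell in Ogg1-/- livers on the HFD. It measured 8.17, 8.31 and 8.80 in Ogg1-/- livers, against 8.72, 9.11 and 9.40 in WT livers, and the groups overlapped. The difference was -0.67 ± 0.23 (1.59-fold lower, adjusted p = 0.0435), a call lost in 13 of 35 alternatives (-0.46 with the axis score, adjusted p = 0.377). The diet difference in Ogg1-/- livers was -0.66 (adjusted p = 0.0744), and -0.76 without Ogg1-/- chow replicate 1, which passed (adjusted p = 0.0197). This difference also passed without Ogg1-/- chow replicate 3 or WT chow replicate 6. On chow Ppp1r3c was at 8.41, 9.07 and 9.79 in Ogg1-/- livers and at 7.90, 9.12 and 9.47 in WT livers. The spread was wide in both groups, with a difference of 0.07 (adjusted p = 0.908). Ppp1r3g, the third measured subunit, passed in no comparison.

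Gys2, the liver glycogen synthase, did not pass in any comparison of the fit of all livers, although its groups did not overlap on the HFD. There it was at 10.59, 11.11 and 11.24 in Ogg1-/- livers, against 11.31, 11.37 and 11.49 in WT livers, a difference of -0.37 ± 0.16 (adjusted p = 0.111). On chow it was 10.45, 11.51 and 11.73 in Ogg1-/- livers, against 10.76, 11.09 and 11.38 in WT livers, a difference of 0.26 (adjusted p = 0.393). Replicate 1 of the Ogg1-/- livers, which stood apart on the axis score, gave the 10.45. Without it the difference on the HFD passed (adjusted p = 0.0121). That difference also passed with array weights, with only the 2 groups compared and with the methods' t-test. With the axis score as a covariate Gys2 was higher in Ogg1-/- livers on chow by 0.55 (adjusted p = 0.00300), and its difference on the HFD was 0.04. Between the diets Gys2 differed by -0.36 in Ogg1-/- livers (adjusted p = 0.161), and by -0.54 without replicate 1, which passed (adjusted p = 0.00102). In WT livers the diet difference was 0.27 (adjusted p = 0.469), and 0.48 with the axis score, which passed (adjusted p = 0.00471).

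The other genes of glycogen synthesis passed in no comparison of the fit of all livers. Ugp2, which makes UDP-glucose, and Gbe1, the branching enzyme, differed by -0.29 and -0.23 between the genotypes on the HFD, with values of 0.02 and -0.09 on chow. Both had their lowest value in Ogg1-/- chow replicate 1, at 9.83 for Ugp2 and 9.74 for Gbe1. Without that liver the difference of Ugp2 on the HFD passed (adjusted p = 0.0462). In the fit with the axis score the diet differences of 0.48 for Ugp2 (adjusted p = 0.00748) and 0.64 for Gbe1 (adjusted p = 0.00362) passed in WT livers, as did that of 0.61 for Gbe1 in Ogg1-/- livers (adjusted p = 0.00444). Pgm1, the phosphoglucomutase, and Gyg, the glycogenin that primes the polymer, differed by between -0.05 and 0.16 over the 4 comparisons, and with the axis score the diet difference of Pgm1 in Ogg1-/- livers was 0.25 and passed (adjusted p = 0.0206).

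In glycogen breakdown, Phka2 fell in Ogg1-/- livers on the HFD. It encodes the liver regulatory subunit of phosphorylase kinase, the enzyme that activates glycogen phosphorylase. Its log2 signal was 8.06, 8.45 and 8.66 in Ogg1-/- livers, against 8.86, 9.04 and 9.32 in WT livers. No Ogg1-/- liver reached the lowest WT liver, and the difference was -0.64 ± 0.12 (1.56-fold lower, adjusted p = 0.00245). The call held under all 35 alternative fits, and with the axis score as a covariate the difference was -0.36 (adjusted p = 0.0391). On chow the log2 signal was 8.27, 8.85 and 9.09 in Ogg1-/- livers and 8.92, 9.12 and 9.28 in WT livers, with a difference of -0.32 (adjusted p = 0.193). The diet difference of Phka2 in Ogg1-/- livers was -0.36 (adjusted p = 0.0636), and -0.47 without Ogg1-/- chow replicate 1, which passed (adjusted p = 0.00259). It also just passed without Ogg1-/- HFD replicate 3, at -0.41. Pygl, the liver glycogen phosphorylase itself, did not pass in the fit of all livers. Its log2 signal was 10.63, 10.70 and 11.06 in Ogg1-/- livers and 10.84, 11.03 and 11.13 in WT livers on the HFD, and 10.20, 10.84 and 10.93 in Ogg1-/- livers and 10.82, 11.01 and 11.20 in WT livers on chow. The differences were -0.27 (adjusted p = 0.0903) on the HFD and -0.32 (adjusted p = 0.162) on chow. That on the HFD passed without Ogg1-/- chow replicate 1 (adjusted p = 0.0296) or without Ogg1-/- HFD replicate 3 (-0.33, adjusted p = 0.0383). It also passed with quantile normalization, with array weights, with only the 2 groups compared and with the methods' t-test.

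**Figure D4:**
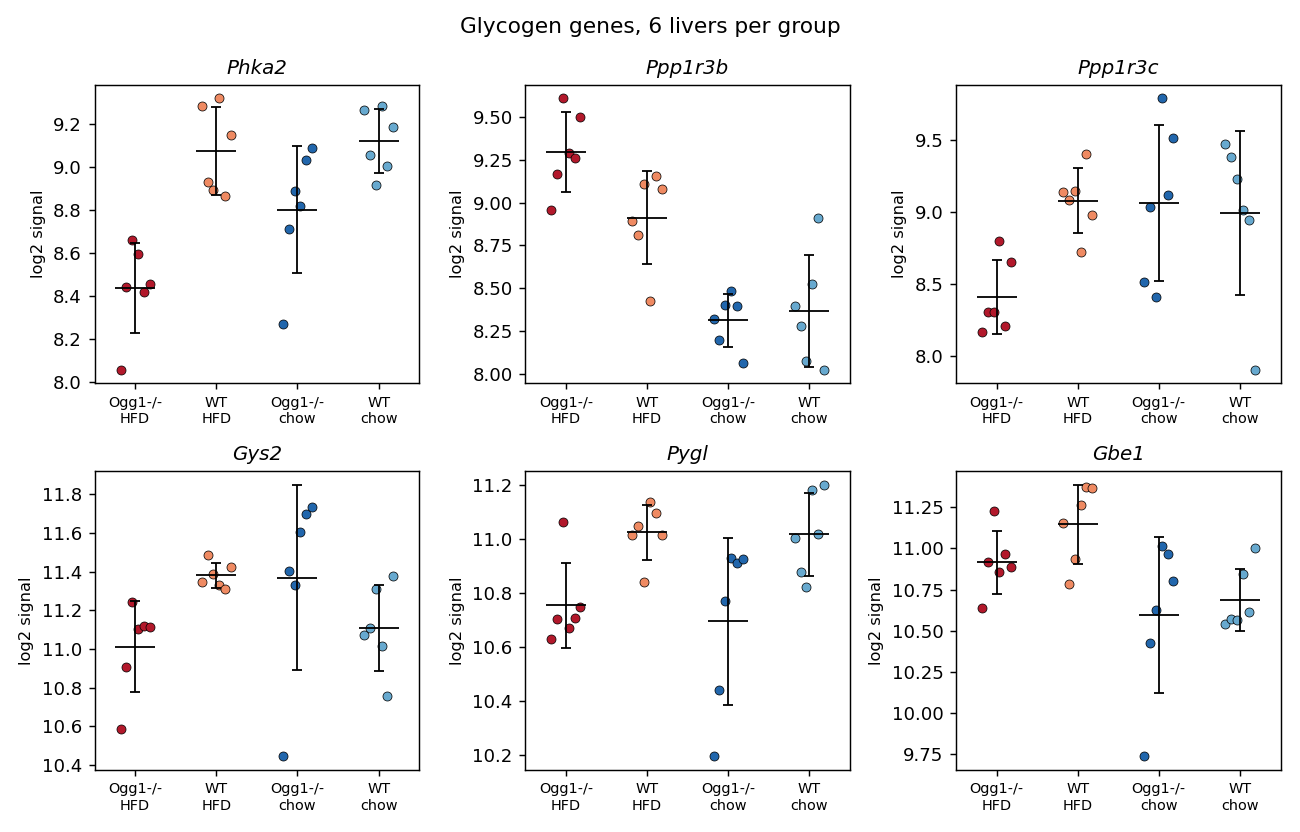
Log2 signal (vertical axis) of 6 genes of glycogen metabolism in each liver (points) of the 4 groups (horizontal axis), with the group mean (horizontal line) and SD (bars). Phka2 and Ppp1r3c are lower in Ogg1-/- than in WT livers on the HFD, and Ppp1r3b is higher on the HFD than on chow in Ogg1-/- livers.

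The pathway holds further genes outside the list of 37, and 36 of 43 such genes were measured. On chow 1 rose and 0 fell, or 2.78% against 0.478% of all probe sets. That gene, Stbd1, a glycogen-binding protein, was higher in Ogg1-/- livers by 0.54 without overlap (adjusted p = 0.00150). On the HFD 9 rose and 3 fell, or 33.3% against 19.8% of all probe sets. Those with the largest differences and no overlap were Phkb, the beta subunit of phosphorylase kinase, which fell by 0.76 (adjusted p = 0.00770), and Aldh1b1, a mitochondrial aldehyde dehydrogenase, which rose by 0.68 (adjusted p = 0.00703). Ldhd, the D-lactate dehydrogenase, rose by 0.33 and Pgam2, the muscle phosphoglycerate mutase, by 0.32. Pgam2 was dim, at 5.32 to 5.68 in Ogg1-/- and 5.10 to 5.23 in WT livers on the HFD. Phka1, the muscle counterpart of Phka2, also fell on the HFD, by 0.38 (adjusted p = 0.0162) with overlap. The catalytic subunits Phkg1 and Phkg2 differed by -0.06 and 0.02, but Phkg1 was dim, at 4.62 to 4.85 in Ogg1-/- and 4.60 to 4.98 in WT livers. The 3 regulatory phosphorylase kinase genes Phka1, Phka2 and Phkb were therefore lower in Ogg1-/- livers on the HFD, and Phka1 and Phkb are named here after their values were seen.

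Between the diets, 8 of the 36 genes rose and 1 fell in Ogg1-/- livers, or 25% against 9.53% of all probe sets. In WT livers 2 rose and 0 fell, or 5.56% against 0.925%. Tkfc, the triokinase that acts after Khk on fructose, rose in Ogg1-/- livers by 0.74 with overlap (adjusted p = 0.00133) and in WT livers by 0.61 without overlap (adjusted p = 0.0196). Pcx, the pyruvate carboxylase that starts gluconeogenesis, rose in Ogg1-/- livers by 0.55 without overlap (adjusted p = 0.000339), and in WT livers by 0.38 with overlap (adjusted p = 0.0229). Aldoc, a brain-type aldolase, fell in Ogg1-/- livers by 1.59 (adjusted p = 0.00142), Aldh1b1 rose by 0.77 and Epm2a, the glycogen phosphatase laforin, by 0.47, each without overlap. No gene of the 36 passed with limma for the interaction, and 5 had an unadjusted p under 0.05.

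Of 32 transcription factors and signalling genes known to control hepatic glucose genes, 30 were measured. On the HFD 12 rose and 6 fell in Ogg1-/- livers, or 60% of the list against 19.8% of all probe sets, and on chow 0 passed with limma, 12 having an unadjusted p under 0.05. The largest differences without overlap were those of Srebf1, which mediates insulin induction of glycolytic and lipogenic genes and rose by 0.92 (adjusted p = 0.00256), and Nr3c1, the glucocorticoid receptor, which fell by 0.91 (adjusted p = 0.00293). Ppargc1a, a coactivator of gluconeogenic genes, fell by 0.79 (adjusted p = 0.00560), and Insr, the insulin receptor, fell by 0.69 (adjusted p = 0.0225). Between the diets, 8 rose and 4 fell in Ogg1-/- livers, or 40% against 9.53% of all probe sets, and 0 passed with limma in WT livers, where 7 had an unadjusted p under 0.05. Srebf1 rose in Ogg1-/- livers by 1.29 (adjusted p = 0.000206), Foxo1, a factor that induces G6pc, rose by 0.33 and Irs1, a substrate of the insulin receptor, fell by 0.41, without overlap. None of the 30 passed with limma for the interaction, 5 having an unadjusted p under 0.05. The list was chosen with earlier results of these data known, and whether its share differs from that of other genes was not tested.

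Genes induced in liver by fasting were counted because the fasting state at collection is not given. Of 12 such genes 11 were measured, and 0 passed with limma between the genotypes on chow, where 5 had an unadjusted p under 0.05. On the HFD, Angptl4 rose by 0.64 and Pdk4, Cpt1a and Ppargc1a fell by 0.94, 0.40 and 0.79 in Ogg1-/- livers. These are 36.4% of the list, against 19.8% of all probe sets. Between the diets, Fgf21 rose by 0.58 and Ppargc1a fell by 0.64 in Ogg1-/- livers, or 18.2% against 9.53% of all probe sets. In WT livers 0 of the 11 passed with limma between the diets, and 4 had an unadjusted p under 0.05.

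Some markers of liver cell types moved with the genotype difference on the HFD and with the diet difference in Ogg1-/- livers. Between the genotypes on the HFD 14 of the 56 measured markers passed, or 25% against 19.8% of all probe sets. All 6 endothelial markers were measured and 5 of them fell in Ogg1-/- livers on the HFD. The mean log2 signal of the list was 8.13 to 8.37 in Ogg1-/- livers against 8.54 to 8.94 in WT livers on the HFD, and 8.10 to 8.88 in Ogg1-/- livers against 8.58 to 8.96 in WT livers on chow. The hepatocyte list was at 12.68 to 12.92 in Ogg1-/- livers against 12.88 to 13.12 in WT livers on the HFD, with 0 of its 9 measured markers higher and 2 lower. In bulk liver, fewer cells of a type and less RNA per cell cannot be told apart, and the part of these lists in the differences above was not tested. Of the 8 macrophage and Kupffer markers 1 rose and 2 fell in that comparison, of 6 lymphocyte markers 1 rose and 1 fell, of 6 stellate cell markers 1 fell and of 2 erythroid markers 1 rose. None of the 5 neutrophil, 4 cholangiocyte, 6 skeletal muscle or 4 adipocyte markers passed there, and 0 of these had an unadjusted p under 0.05. On chow 0 of all 56 markers passed with limma, and 9 had an unadjusted p under 0.05. Between the diets in Ogg1-/- livers 11 of the 56 passed, or 19.6% against 9.53% of all probe sets: 4 endothelial, 2 hepatocyte and 1 lymphocyte marker fell, and 2 macrophage and Kupffer markers, 1 skeletal muscle and 1 adipocyte marker rose, the last being Cidec by 1.70 (adjusted p = 0.0225). In WT livers 1 of the 56 passed between the diets, a hepatocyte marker that fell, or 1.79% against 0.925% of all probe sets. The part of these markers in the 9 diet calls in Ogg1-/- livers was not tested.

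The axis score separated the genotypes on the HFD, and a fit with it as a covariate was therefore run after the data had been seen. Because the HFD groups do not overlap on the score, score and genotype cannot be fully told apart there. Calls kept or lost on the HFD in this fit therefore do not separate the 2. The mean score also differed between the diets, with overlapping ranges. It was 32.0 on the HFD and 1.41 on chow in Ogg1-/- livers, and -7.03 and -26.4 in WT livers. Diet calls gained or lost in this fit therefore do not fully separate diet and score either. In that fit 2 of the 34 genes passed on the HFD in place of 8, while the share of all probe sets called was 2.71% in place of 19.8%: Slc37a4, higher by 0.43 (adjusted p = 0.0223), and Phka2, lower with -0.36 (adjusted p = 0.0391). On chow G6pc and Gys2 passed, against 0.315% of all probe sets. Between the diets 11 genes passed in Ogg1-/- livers, or 32.4% against 4.76% of all probe sets, of which Pfkl, Fbp1, Khk, Pklr, Ldha, G6pc and Ppp1r3b were also called without the covariate, and in WT livers 6 genes rose with the HFD (Slc2a2, Pklr, Ldha, Gys2, Ugp2 and Gbe1), or 17.6% against 1.97%. The number of genes called on the HFD also moved with single arrays, as did the share of all probe sets. It was 13 without Ogg1-/- chow replicate 1, where 25.9% of all probe sets were called. It was 4 without Ogg1-/- HFD replicate 2 (15.2%) or WT HFD replicate 1 (14.7%). It was 5 without Ogg1-/- HFD replicate 1, WT HFD replicate 2 or WT HFD replicate 6, with 13.7% to 15.3%. Between the diets in Ogg1-/- livers it was 16 without Ogg1-/- chow replicate 1, where 25.4% of all probe sets were called. These 16 include the probe set taken for Hk1, whose signal cannot be assigned to hexokinase 1. Without Ogg1-/- HFD replicate 1 the number was 6, with 4.81%.

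**Figure D5:**
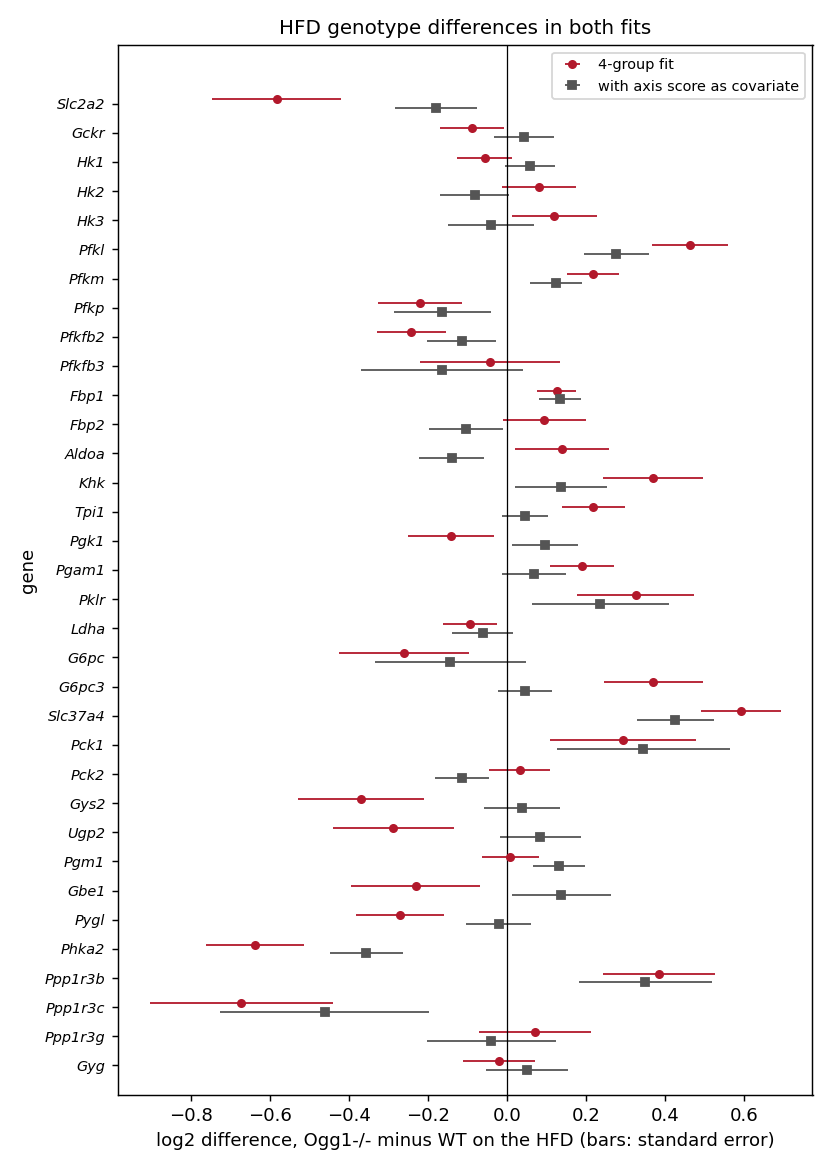
Log2 difference of Ogg1-/- minus WT livers on the HFD (horizontal axis) for the 34 genes (vertical axis), in the fit of the 4 groups (red circles) and with the axis score as a covariate (grey squares), each with its standard error (bars). Slc2a2 lies at -0.58 and -0.18, and Slc37a4 at 0.59 and 0.43.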

How the data were processed

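Each mouse has 1 array, deposited by the authors as a log2 signal for every probe set. The submitters' processing notes name RMA (robust multiarray averaging), which corrects background, normalizes arrays and summarises probes. The version of RMA was not stated, and the study's methods describe other normalizations for parts of its own analysis. RMA compresses small and low signals, so folds of dim genes may be understated. Values ran from 1.81 to 14.8, array medians from 5.90 to 5.97, and correlations between arrays from 0.952 to 0.993, with 0 identical pairs. The number of arrays limits the precision.

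Of 35556 probe sets, 21789 carry 1 gene symbol in the platform annotation, 1621 several and 12146 none, and 21698 were matched to a current symbol through the Entrez identifier. All probe sets were fitted without a filter by limma 3.58.1 under R 4.3.3 (lmFit and eBayes, 4 group means in a single model), checked on simulated data, and p-values were adjusted over all probe sets. The contrasts were Ogg1-/- against WT on each diet, their difference, and HFD against chow in each genotype. Values for every group are given for genes called with a fold of at least 1.5 in any comparison and for Slc2a2, Gckr, Pfkl, Pklr, Fbp1, G6pc, Pck1, Gys2 and Pygl. Of the further pathway genes and the regulators, up to 4 per comparison with the largest difference among those called without overlap are named. The members and all lists (further pathway genes, regulators, fasting-induced genes, cell markers) were chosen with earlier results of these data known. Promoter sequences come from the RefSeq table of GRCm38.p6, used for no coordinates of probes.

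Alternatives were a replicate block, median centring, quantile normalization, leaving out probe sets dimmer than 5.93, array weights, a trended robust prior, only the 2 groups compared, the methods' t-test, a mean over probe sets, 1 probe set per gene, a fold of at least 1.5, and leaving out each array. A fit with the axis score (projection of each array on the first principal component of the residuals of the 2 chow groups) as a covariate was added after seeing the data. Labels say that samples are biological replicates. Over 36 pairs of samples with the same replicate number, residual correlations ran from -0.27 to 0.43 (median -0.03), so numbers were not taken as pairs.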

Additional observations from a re-analysis of the deposited data

Results flagged for a closer look

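Of 72 groups of 6 livers examined for 18 genes, 7 held a liver far from the others. Chance flags about 1 of 20 such groups, and these groups are not independent, since they reuse the same 24 livers. In Ogg1-/- livers on chow, replicate 1 was lowest in Slc2a2 at 10.48 (next 11.27) and in Gys2 at 10.45 (next 11.33). In Ogg1-/- livers on the HFD, replicate 3 was highest in Pygl at 11.06 (next 10.75). In WT livers on the HFD, replicate 5 was highest in Pfkl at 8.37 (next 8.06), replicate 1 was lowest in Pfkm at 7.499 (next 7.69) and replicate 3 was lowest in Ldha at 13.27 (next 13.37). In WT livers on chow, replicate 6 was lowest in Ppp1r3c at 7.90 (next 8.95). Of these livers, replicate 1 of the Ogg1-/- livers on chow also had the highest axis score of all, at 80.9, and the part of what sets it apart in these values was not tested.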

How the results depend on the processing

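Of the 21 calls on single genes, all 21 kept their direction and 5 also kept the call under all 35 alternative fits, the requirement of a fold of at least 1.5 left aside (Slc37a4 and Phka2 between the genotypes on the HFD, Ldha between the diets in WT livers, and Pklr and Ppp1r3b between the diets in Ogg1-/- livers). The number of genes called moved as follows. On chow, 2 genes were called, 1 at a fold of at least 1.5, 1 with the replicate block and 0 with the methods' t-test. The shares of all probe sets called were, in the same order, 0.478%, 0.242%, 0.385% and 0.0928%. On the HFD, 8 were called, 3 at a fold of at least 1.5, 14 with array weights, 2 with the axis score as a covariate and 6 with the replicate block. Here the shares of all probe sets were 19.8%, 5.89%, 26.4%, 2.71% and 19.7%. Between the diets in Ogg1-/- livers, 9 were called, 4 at a fold of at least 1.5, 15 with array weights, 4 with only the 2 groups compared, 3 with the methods' t-test and 7 with the replicate block. Their shares over all probe sets were 9.53%, 3.11%, 23%, 2.71%, 1.62% and 9.49%. In WT livers, 2 were called, 1 at a fold of at least 1.5, 5 with array weights, 6 with the axis score, and 4 each with quantile normalization, without dim probe sets, with the mean over probe sets and with 1 probe set per gene. For these the shares over the array were 0.925%, 0.385%, 2.36%, 1.97%, 1.11%, 2.5%, 1.52% and 1.48%. The cause of these changes was not tested. Leaving out 1 array gave 1 to 3 genes on chow, 4 to 13 on the HFD, 0 to 2 for the interaction, 2 to 3 between the diets in WT livers and 6 to 16 in Ogg1-/- livers. The share of all probe sets then ran from 0.245% to 2.93% on chow and from 13.7% to 25.9% on the HFD. It ran from 0.00281% to 1.52% for the interaction, and between the diets from 0.436% to 1.9% in WT and from 3.8% to 25.4% in Ogg1-/- livers. Slc2a2 on chow reversed, with a difference of -0.07, to 0.11 with array weights, 0.22 with the axis score and 0.11 without Ogg1-/- chow replicate 1 (-0.14 to 0.11 over all arrays left out). With the axis score, the HFD genotype difference of Gckr reversed to 0.044 and that of Gys2 to 0.038. Signal over background was not analysed here.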
